A study of Mus musculus with 2 samples.

Results

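Collagens and laminins are the main structural proteins of the extracellular matrix, and the genes described here are those whose array symbol names a collagen alpha chain or a laminin alpha, beta or gamma chain. They were chosen by symbol from the probe sets that name 1 gene, by a rule that uses no measured value, which gave 50 genes on 82 probe sets of the 17098 genes and 45118 probe sets of the table. A usable value on both arrays was left for 48 of the 50 genes: 9 collagens of the basement membrane or its zone, 11 fibrillar collagens, 8 laminin chains and 20 other collagens. Col6a5 and Col8a2 had none, because the control value of their single probe sets repeats a value in the rows above it. Col8a1 was read from 1 of its probe sets, since both others carried a series of numbers rising by 1 in place of a measurement.

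Laminins are trimers of an alpha, a beta and a gamma chain, and they assemble into the first sheet of a basement membrane on integrins and dystroglycan at the cell surface. Type IV collagen then forms a second network, which nidogen and perlecan join to the laminin sheet. Fibrillar collagens, by contrast, make the rope-like fibres of connective tissue. In the early mouse embryo the laminin of the alpha-1, beta-1 and gamma-1 chains and type IV collagen form the first basement membranes, and the primitive endoderm and its parietal derivative secrete large amounts of both.

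The array profiles came from mouse embryonic stem (ES) cells, pluripotent cells of the early embryo, grown without feeder cells on gelatin in serum and leukaemia inhibitory factor. They carried a retrovirus with either a control short-hairpin RNA (control KD) or one against the short histone variant H2A.B (H2A.B KD), driven by a U6 promoter, and both were kept in G418 for 2 to 4 weeks. Each group had 1 Affymetrix array, made from 2 µg of total RNA, and the labels number the knockdown sample 1 without saying whether it was a clone or a pool. With 1 array per group no difference has a replicate error and no test was possible. Differences are therefore described by a fixed rule of size, 2-fold or 1 on the log2 scale, and the gene's brightest usable probe set stands for it.

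The H2A.B genes themselves were named by 0 probe sets, so the depletion could not be checked. ES cell markers were measured for 9 of 10 genes, all of them above 6.73, the median over genes of the mean log2 intensity, which served as the expression filter. Dppa5a had log2 intensities of 14.24 (control KD) and 14.22 (H2A.B KD), Pou5f1 had 12.65 and 12.64, and Sox2 had 12.38 and 12.41. Markers of primitive and parietal endoderm lay below the filter for all 12 genes measured of 13, the brightest being Ttr at 6.59 and 6.80, Amn at 6.08 and 6.03 and Hnf4a at 6.06 and 6.03. Their summed linear intensity was 519 in control KD and 507 in H2A.B KD cells. Of 11 fibroblast markers measured of 12, 3 passed the filter: Acta2 (8.70 and 8.90), S100a4 (7.71 and 7.65) and Thy1 (6.71 and 6.78), and the summed linear intensity of the list was 1036 and 1112. An array reports neither the number of cells of a type nor the RNA per cell, and the 2 cannot be told apart.

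Among the 48 genes, 2 passed the 2-fold rule downwards in H2A.B KD cells, Col4a1 and Col2a1, and 0 passed it upwards. Over all 16563 measured genes 2.91% were 2-fold lower and 1.13% were 2-fold higher, so the share among the collagens and laminins was near the background in both directions. The median difference, knockdown minus control, was 0.01 on the log2 scale over the 48 genes and -0.01 over all genes, and 43 of the 48 (89.6%) lay within 0.5, as did 88.9% of all genes. Above 0 were 26 of the 48, where 47.3% of all genes were. At 1.5-fold 1 gene was higher, against 2.98% of all genes, and 3 were lower, against 6.24%. The expression filter was passed by 12 genes, neither Col4a1 nor Col2a1 among them.

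**Figure D1:**
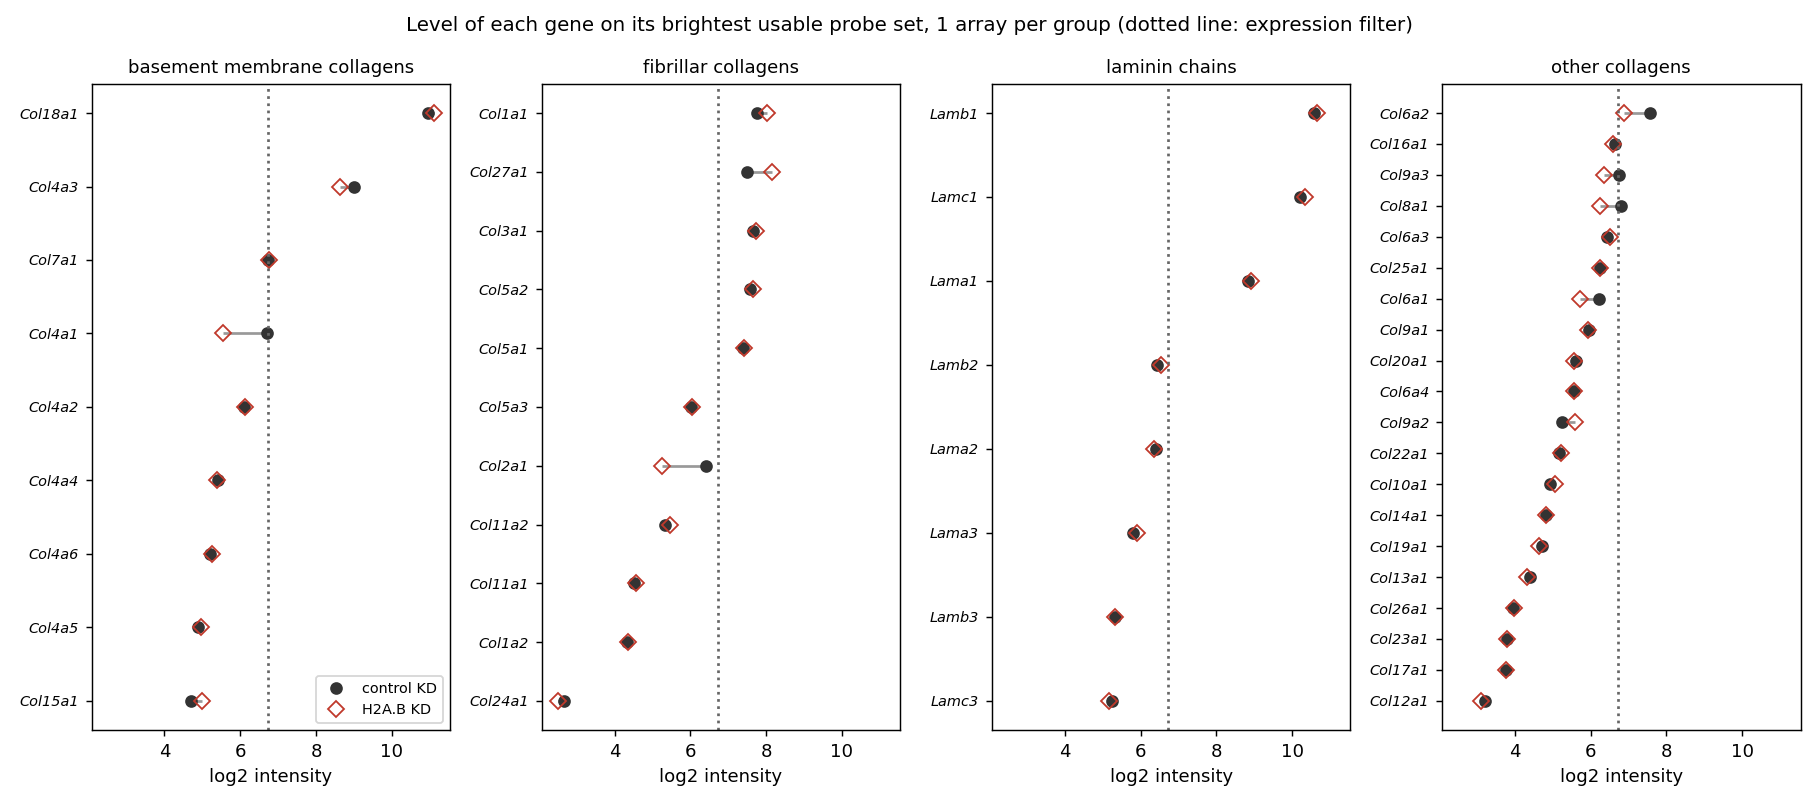
Log2 intensity (x axis) of each gene on its brightest usable probe set, on the control KD array (filled circles) and the H2A.B KD array (open diamonds), 1 array per group, in 4 panels by class. The pairs of symbols coincide for most genes and are widest apart for Col4a1 (6.71 against 5.54) and Col2a1 (6.40 against 5.25).

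The 6 type IV collagen genes lie as 3 head-to-head pairs in the GRCm38.p6 annotation, Col4a1 with Col4a2 on chromosome 8, Col4a3 with Col4a4 on chromosome 1, and Col4a5 with Col4a6 on chromosome X. The annotated Col4a1 and Col4a2 genes overlap by 85 bases at their starts, those of Col4a3 and Col4a4 by 114 bases, and 1274 bases separate Col4a5 from Col4a6. The start regions of Col4a1 and Col4a2 are shown because these neighbours had unlike differences on the arrays, and those of Col6a1 and Col6a2 because these neighbours on chromosome 10, with 85161 bases between them, were both lower. Each sequence is the RefSeq window of 250 bases before to 50 after an annotated start in GRCm38.p6, written on the gene's own strand, and for Col6a2 it is the first of its listed windows. They are chr8:11312777-11313076 (minus strand) for Col4a1, chr8:11312555-11312854 (plus strand) for Col4a2, chr10:76725995-76726294 (minus strand) for Col6a1 and chr10:76623355-76623654 (minus strand) for Col6a2. Capitals mark GGGCGG, the core of a GC box, and CCAAT, on either strand; overlapping matches run together.
Col4a1: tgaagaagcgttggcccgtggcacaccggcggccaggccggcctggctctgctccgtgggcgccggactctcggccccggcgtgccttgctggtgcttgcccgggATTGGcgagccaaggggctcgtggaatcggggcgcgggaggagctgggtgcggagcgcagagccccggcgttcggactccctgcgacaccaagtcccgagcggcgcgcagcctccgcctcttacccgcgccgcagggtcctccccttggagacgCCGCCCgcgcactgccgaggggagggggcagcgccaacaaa
Col4a2: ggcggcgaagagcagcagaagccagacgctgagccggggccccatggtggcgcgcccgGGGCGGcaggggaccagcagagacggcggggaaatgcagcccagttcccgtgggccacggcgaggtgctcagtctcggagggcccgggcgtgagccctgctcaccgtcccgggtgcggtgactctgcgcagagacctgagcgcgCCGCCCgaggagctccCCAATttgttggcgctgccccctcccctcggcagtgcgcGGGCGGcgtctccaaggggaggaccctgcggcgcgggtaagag
Col6a1: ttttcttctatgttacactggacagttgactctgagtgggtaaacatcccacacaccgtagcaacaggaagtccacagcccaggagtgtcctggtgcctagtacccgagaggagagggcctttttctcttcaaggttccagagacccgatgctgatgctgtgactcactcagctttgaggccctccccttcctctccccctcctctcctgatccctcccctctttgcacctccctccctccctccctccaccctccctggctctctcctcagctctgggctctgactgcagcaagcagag
Col6a2: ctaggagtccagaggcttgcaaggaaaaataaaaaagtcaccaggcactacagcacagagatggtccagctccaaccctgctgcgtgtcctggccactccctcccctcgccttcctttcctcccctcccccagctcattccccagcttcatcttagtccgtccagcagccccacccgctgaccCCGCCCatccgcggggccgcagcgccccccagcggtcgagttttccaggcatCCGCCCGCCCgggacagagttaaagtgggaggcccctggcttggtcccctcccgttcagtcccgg
The last 78 bases of the Col4a1 window are the reverse complement of the last 78 of the Col4a2 window, so the starts used for both windows lie in shared DNA. The Col4a1 gene used for the 85-base overlap starts at 11312889, outside that stretch. Its window therefore rests on another annotated start. The Col4a1 window held 1 GGGCGG and 1 CCAAT, and the Col4a2 window 3 and 1, 1 GGGCGG of each being the same site in the shared stretch. The Col6a2 window held 3 GGGCGG, of which 2 overlap, and no CCAAT, and the Col6a1 window held neither. TATAAA, searched on both strands as well, was in 0 of these 4 windows. Over the 27025 genes with a window, GGGCGG was in 35.9% of first-listed windows, CCAAT in 37.9% and TATAAA in 14.2%. Of the 37 collagen and laminin genes with a window, 62.2%, 35.1% and 13.5% held them.

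Col4a1, which encodes the alpha-1 chain of the ubiquitous type IV collagen, had 6.71 in control KD and 5.54 in H2A.B KD cells, 2.24-fold lower. Its other probe set had 6.28 and 5.06, 2.33-fold lower. The 2 probe sets therefore gave almost the same difference, -1.16 and -1.22, although they stand in different sections of the deposited table. Those sections matter, because the table has a first section (before row 18185) in which differences are narrow, a middle section in which control values are repeated, and a last section about as wide as the middle one. In the first section, from which Col4a1 was read, 0.692% of 9398 genes were 2-fold lower, against 6.09% of 3400 in the middle and 5.58% of 3765 in the last. Of the 12 primitive and parietal endoderm markers 8 were below 0, with a median difference of -0.02. Cubn, the endocytic receptor gene cubilin, was the 1 marker of that list 2-fold lower. It had 4.98 and 3.60 on one probe set and 3.91 and 2.67 on the other. Over all measured genes 2.91% were 2-fold lower, and 5.58% of those in the last section, where its brighter probe set stands. Cubn was singled out after its value was seen. The 11 other markers lay within 0.5, 4 of them above 0. The part of primitive or parietal endoderm cells in the Col4a1 difference was not tested.

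Col4a2, which encodes the alpha-2 chain that joins alpha-1 in the same trimer, had 6.09 in control KD and 6.13 in H2A.B KD cells on its single probe set, a difference of 0.04. The partners in the trimer and in the genome were thus not alike on these arrays. The 4 other type IV genes encode chains of more restricted basement membranes, such as those of the kidney, lung and smooth muscle. Col4a3 had 8.999 and 8.63 on its brightest probe set (-0.37, middle section) and 4.43 and 4.27 on the other (-0.15). Col4a4, its head-to-head neighbour, differed by -0.02 on the brighter of its probe sets and by 0.28 on the other. Col4a5 differed by 0.07 and -0.01 on its probe sets, and Col4a6 by 0.05 on both.

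Of the collagens of the basement membrane zone, Col18a1, the source of endostatin, had 10.95 in control KD and 11.11 in H2A.B KD cells (0.16), and 10.79 and 10.91 on its other probe set (0.12). Col7a1, the anchoring fibril collagen of skin, had 6.73 and 6.77 (0.04). Col15a1, a relative of Col18a1, had 4.69 and 5.001 (0.31, middle section). Over the 9 genes of the class 6 were above 0 and the median difference was 0.04. The class thus held 1 gene past 2-fold and 8 within 0.5.

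**Figure D2:**
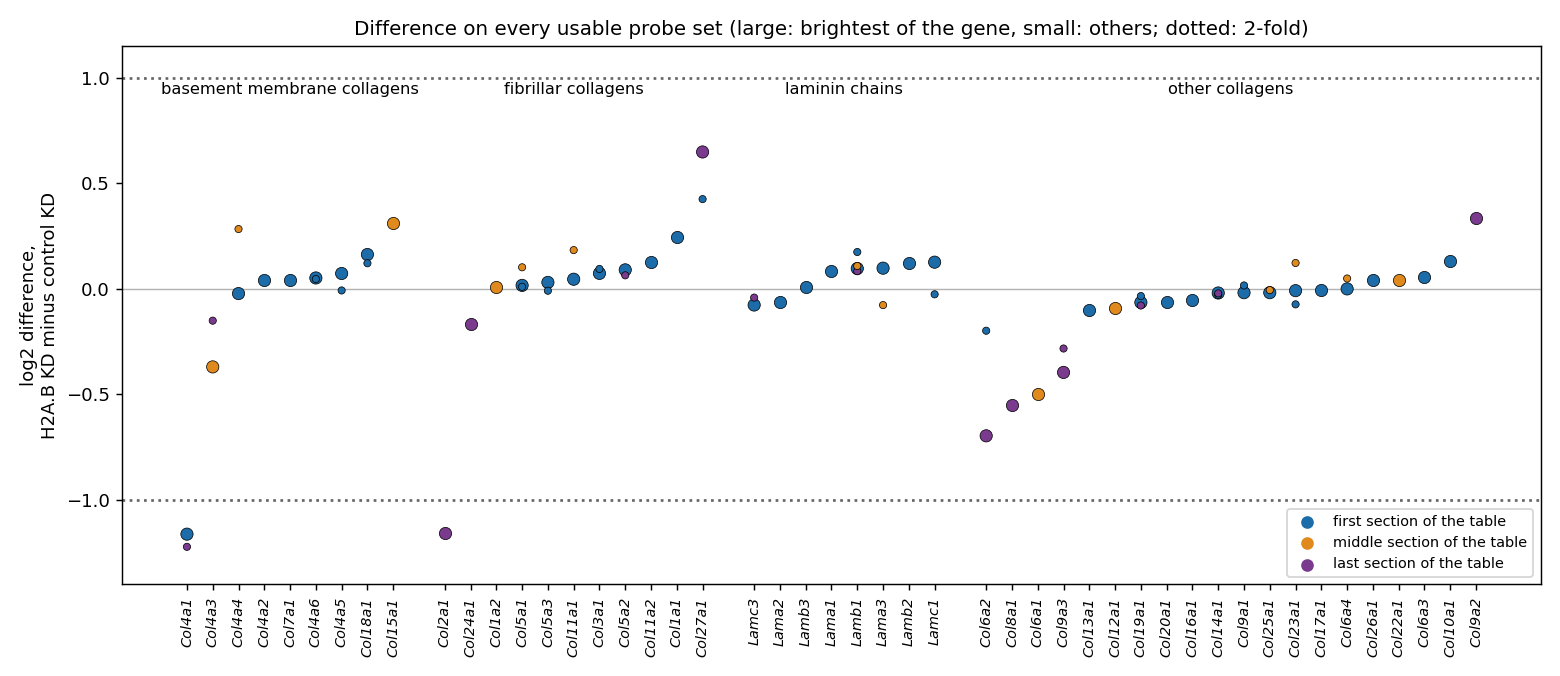
Log2 difference, H2A.B KD minus control KD (y axis), on every usable probe set of each gene (x axis, by class), with large points for the brightest probe set of a gene, small points for its others, and colour for the section of the table. Both Col4a1 points lie below the dotted 2-fold line, as does the single Col2a1 point at -1.16, while all laminin points lie within 0.2 of 0.

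All 8 laminin chains measured were read from the first section and lay between -0.08 and 0.13, with 6 above 0 and a median of 0.09. The 3 chains of the embryonic laminin were those past the expression filter. Lama1, the alpha-1 chain, had 8.84 in control KD and 8.92 in H2A.B KD cells (0.09). Lamb1, the beta-1 chain, had 10.57 and 10.67 (0.10), and its 3 other probe sets differed by 0.17, 0.08 and 0.11. Lamc1, the gamma-1 chain, had 10.22 and 10.35 (0.13), but 7.54 and 7.51 (-0.03) on its other probe set. These differences are small and mostly of one sign. For scale, the median absolute difference was 0.04 over all genes of the first section, and the only technical spread to be had, the SD between a gene's probe sets in this difference, had a median of 0.06 over 6826 genes.

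The other laminin chains belong to basement membranes of muscle, epithelium and vessels. Lamb2, the beta-2 chain of synapses and the kidney filter, differed by 0.12 and Lama2, the alpha-2 chain of muscle, by -0.06. The epithelial chains Lama3 and Lamb3 differed by 0.10 and 0.01, with -0.08 on the second probe set of Lama3. Lamc3, the gamma-3 chain, differed by -0.08 and -0.04.

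Among the fibrillar collagens, Col2a1, the main collagen of cartilage, had 6.40 in control KD and 5.25 in H2A.B KD cells, 2.23-fold lower. It has a single probe set, in the last section, so no second measurement stands beside it. Col27a1, a fibrillar collagen of developing cartilage, was the opposite case, with 7.50 and 8.15 (0.65, 1.57-fold higher) on one probe set and 5.71 and 6.13 (0.42) on another, in the last and first sections. It was the only one of the 48 genes to be 1.5-fold higher.

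The collagens of the common fibrils lay between 0.01 and 0.25, with Col1a1 at the top. Col1a1, the alpha-1 chain of type I collagen, had 7.77 in control KD and 8.01 in H2A.B KD cells (0.25), the highest difference of the 35 genes read from the first section. Col1a2, its alpha-2 partner, had 4.34 and 4.35 (0.01), a level below the filter. Col3a1, of stretchable tissues, had 7.66 and 7.73 (0.07), with 0.09 on its dimmer probe set. The type V chains, which start and limit the width of type I fibrils, were alike: Col5a1 had 7.40 and 7.41 (0.02) and Col5a2 had 7.57 and 7.66 (0.09). Their other probe sets differed by 0.10 and 0.01 (Col5a1) and by 0.06 (Col5a2). Col5a3, below the filter, differed by 0.03, and by -0.01 on its other probe set. Col11a1, Col11a2 and Col24a1 differed by 0.05, 0.13 and -0.16, each also from a level below the filter. The other probe set of Col11a1 differed by 0.18. Over the 11 genes 9 were above 0 and the median was 0.05.

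The 20 other collagens had 5 genes above 0 and a median of -0.02, and 18 of them lay within 0.5. The exceptions were Col6a2 and Col8a1. Type VI collagen forms beaded filaments around cells from alpha-1, alpha-2 and a larger partner chain. Col6a2 had 7.58 in control KD and 6.88 in H2A.B KD cells (-0.70, 1.62-fold lower, last section), and 4.38 and 4.18 (-0.20, first section) on its other probe set. Col6a1 had 6.21 and 5.72 (-0.50, middle section) on its single probe set. Col6a3, that larger chain, differed by 0.05 in the first section, so the 3 chains were not lower together. Col6a4 differed by -0.00064 and 0.05.

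Col8a1, a network collagen of vessel walls and cornea, had 6.79 and 6.24 (-0.55, last section) on its only usable probe set. The type IX chains, which coat cartilage fibrils, went different ways. Col9a3 had 6.74 and 6.34 (-0.40), with -0.28 on its other probe set, Col9a2 had 5.25 and 5.59 (0.33), and Col9a1 differed by -0.02. Each of the 4 genes between -0.40 and -0.70 in this class (Col6a2, Col8a1, Col6a1 and Col9a3) was read from the middle or last section. The 13 genes of the class read from the first section, among them the transmembrane collagens Col13a1, Col17a1, Col23a1 and Col25a1, lay between -0.10 and 0.13. What the section contributes to these differences was not tested.

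**Figure D3:**
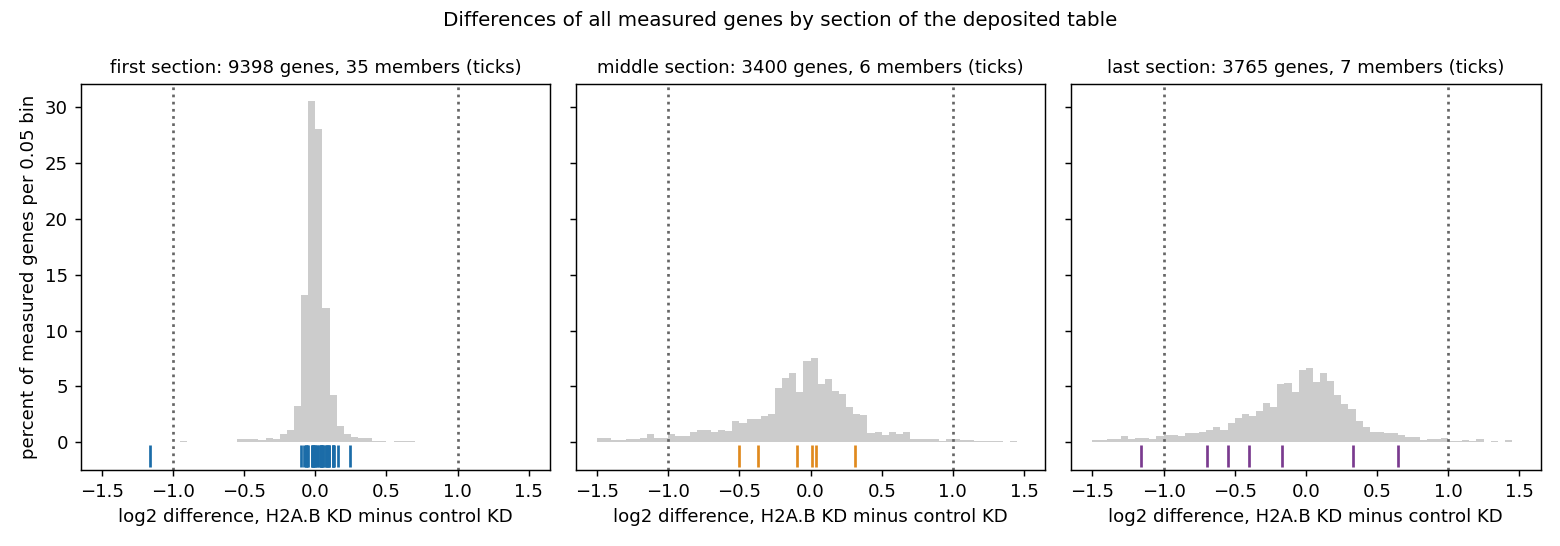
Percent of all measured genes per bin of 0.05 (y axis) by log2 difference, H2A.B KD minus control KD (x axis), in the first, middle and last sections of the deposited table, with the collagen and laminin genes as ticks under the bars. The first section is narrow and holds 35 of the 48 genes, of which 34 lie within 0.5 and Col4a1 at -1.16 stands apart.

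By section, 35 of the 48 genes came from the first, 6 from the middle and 7 from the last. The first-section genes had a median absolute difference of 0.06, beside 0.04 for all genes there, and 34 of the 35 lay within 0.5, where 98.1% of all genes of that section did. The last-section genes had one of 0.55, beside 0.23 for all genes there, and 3 of the 7 lay within 0.5, where 76.7% of all genes of that section did. Where a gene had more than 1 usable probe set, which was so for 24 genes, all of its probe sets gave the same sign in 16. Their SD had a median of 0.04 and exceeded 0.3 only for Col6a2 (0.35).

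Enzymes and chaperones that make collagen showed 28 measured genes of 32 listed, of which 12 were above 0 and 0 differed by 2-fold (median -0.01, beside -0.01 over all genes). Serpinh1, the collagen chaperone Hsp47, had 8.30 in control KD and 7.75 in H2A.B KD cells (-0.55) on one probe set and 7.91 and 7.37 (-0.54) on the other, both in the last section. The procollagen protease gene Adamts3 had 7.53 and 7.86 (0.33) on its brightest probe set and 3.66 and 2.61 (-1.04) on the dimmer one. The prolyl isomerase gene Ppib differed by -0.27, as did Mia3, which loads procollagen into transport carriers. The 3 other Mia3 probe sets differed by -0.02, 0.04 and -0.33. The 13 genes of this list read from the first section lay between -0.07 and 0.12.

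Proteins that bind laminin and type IV collagen in the basement membrane had 15 measured genes of 18, 12 of them above 0, with a median of 0.08. Nid1, the nidogen that links the laminin and collagen networks, had 8.90 in control KD and 8.98 in H2A.B KD cells (0.08), with 0.03 on its other probe set. Agrn, the heparan sulfate proteoglycan agrin, had 9.63 and 9.76 (0.13), and Hspg2, perlecan, had 9.36 and 9.46 (0.10). Frem2, a protein of the epidermal basement membrane, had 8.95 and 9.15 (0.20). Fbln1, fibulin-1, had 8.92 and 8.23 (-0.69) on its brightest probe set in the last section, but differed by -0.04 and -0.13 on the 2 others. The 7 genes of this list read from the first section were all above 0, between 0.03 and 0.13. Of all genes of that section 48.6% were above 0. The sign was not particular to this list. All 10 receptor genes and all 7 fibrillar collagens read from that section were above 0 too, but only 3 of 13 other collagens. One gene of the list was 2-fold lower, Smoc1, at 6.22 and 4.09 (-2.12) on its single probe set in the middle section, below the filter. Over all measured genes 2.91% were 2-fold lower, and 6.09% of those in the middle section. Npnt, nephronectin, a basement membrane ligand of integrins, had probe sets that disagreed: its brightest, below the filter, had 6.09 and 6.45 (0.36), and the 4 others differed by 1.45, from 5.40 and 6.85, and by -0.99, 0.32 and 0.19. It held the 1 probe set of the partner lists that was 2-fold higher. Smoc1 and Npnt were singled out after their values were seen.

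The receptors had 16 measured genes of 17, 12 of them above 0, with a median of 0.05. Itgb1, the beta-1 integrin shared by most collagen and laminin receptors, had 10.90 in control KD and 11.08 in H2A.B KD cells (0.19). Its 4 other probe sets differed by 0.16, 0.20, 0.03 and -1.52, the last from 6.87 and 5.35, so one Itgb1 probe set was 2-fold lower and the other 4 were not. Itga3, an alpha chain of laminin receptors, had 9.47 and 9.74 (0.27), but -0.17 and -0.13 on its other probe sets, and Dag1, dystroglycan, had 10.24 and 10.38 (0.14), with 0.04 and 0.05 on the others. The collagen receptor kinase gene Ddr1 had 7.14 and 7.38 (0.24). Itga2, the alpha-2 chain of a collagen-binding integrin, was the 1 gene of the list 2-fold lower. It had 5.78 and 2.64 (-3.14) on a single probe set of the last section. Over all measured genes 2.91% were 2-fold lower, and 5.58% of those in the last section. Itga2 too lay below the filter and was singled out after its value was seen.

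The matrix proteases and their inhibitors had 16 measured genes of 18, 8 of them above 0, none past 2-fold and a median of -0.0033. Mmp2, a gelatinase that cleaves type IV collagen, had 7.36 in control KD and 6.98 in H2A.B KD cells (-0.38, first section). Mmp14, its membrane-bound activator, differed by -0.15 on its brightest probe set and by 0.42 on the dimmer one, Mmp11 by 0.10 and Timp3 by 0.03.

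**Figure D4:**
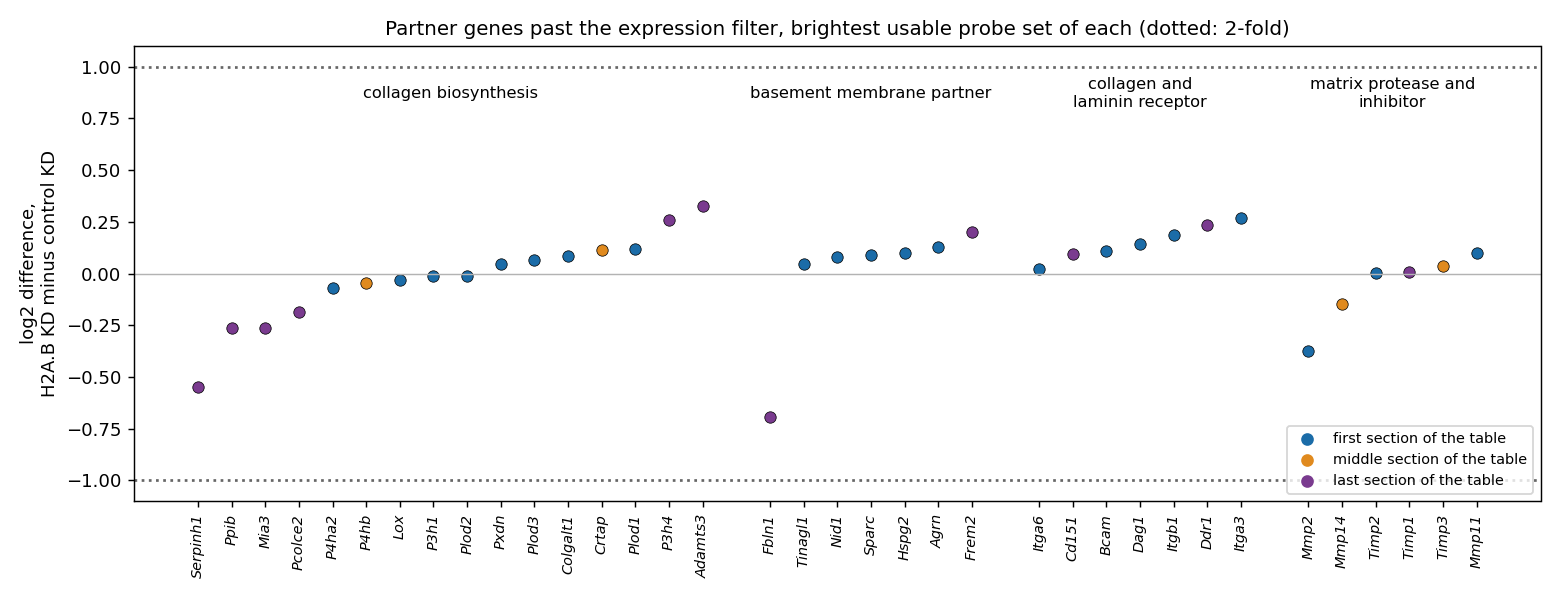
Log2 difference, H2A.B KD minus control KD (y axis), of the genes past the expression filter in 4 lists of collagen and laminin partners (x axis), each on its brightest usable probe set, coloured by section of the table. All lie inside the dotted 2-fold lines, and the lowest are Fbln1 (-0.69) and Serpinh1 (-0.55), both from the last section.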

How the data were processed

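The deposited table holds 1 value per probe set and array. The authors made the values with RMA (version not stated), as named in the submitters' processing notes; it corrects background, normalises quantiles and summarises probes. The scale is not stated; the deposited control values run from 0.801 to 14.5 and were read as log2 intensities. The deposited knockdown column was handled as a score, because 616 of its values rise by 1 between rows 2054 and 4710 and 2 others exceed 20; these 618 values were left out and the rest read as log2. Control values identical to a value up to 20 rows above (1455, rows 18185 to 33642) were left out too. Usable values had medians of 5.64 (control KD) and 5.59 (H2A.B KD), and Pearson's r between the arrays was 0.984 over probe sets, not over replicates. Arrays have no read depth, and having 1 per group limits the precision.

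Of 45118 probe sets, 28898 named 1 gene in the platform annotation, 551 several and 15669 none. Symbols, gene positions and promoter windows came from RefSeq tables of GRCm38.p6. No centring was added. The steps that leave out values and the 2-fold rule were run on simulated arrays with planted errors and differences larger than 2-fold. Such a run does not measure errors on the real arrays. Python 3.11.15, pandas 2.3.3 and statsmodels 0.14.6 (lowess) were used. Named in full are the collagen and laminin genes past the expression filter or with a 2-fold difference on any probe set, and of each partner list the 4 largest differences past the filter with Serpinh1, Nid1, Itgb1 and Dag1; further genes are given briefly or were singled out after their values were seen. The rule for the members uses symbols alone, but the choice of this gene family and of the lists was made with earlier results of these data known.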

Additional observations from a re-analysis of the deposited data

How the results depend on the processing

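No paired analysis was possible because each group has 1 array, and no replicate could be left out. The count of genes at least 2-fold lower, 2 as reported, was 1 with probe sets that carry no s, x or a suffix, where Col2a1 has no value, and 0 with the expression filter at the median or at the 75th percentile, which neither gene passes. With a 1.5-fold rule 1 gene was higher and 3 were lower. The filter at the median left 1 gene among the other collagens (Col6a2, -0.70), and the filter at the 75th percentile left 1 among the basement membrane collagens (Col18a1, 0.16) and no fibrillar or other collagen. Chosen after seeing the data were the 2 settings by section: the first section alone gave 1 gene 2-fold lower, Col4a1, and without the first section the medians were -0.044 for 4 basement membrane collagens and -0.042 for 3 laminin chains. The class medians otherwise moved by less than 0.065, the median SD between probe sets of a gene. Over 14 named genes and 102 recomputed differences the sign was kept in 102, and 7 moved by more than that SD. Several settings could hardly turn a sign. Those for repeated values changed none of these differences, and lowess centring shifted values by at most 0.034. The count therefore does not measure how far a gene's probe sets agree. Lamc1 kept its sign in it, although its other probe set differed by -0.03. Intensities were not compared with an array background, which limits how exactly differences of dim probe sets, Col4a1 and Col2a1 included, are sized.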
